A study of Homo sapiens with 12 samples.

Results

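Lysosomes are the acidic compartments in which cells break down proteins, glycans and lipids. Their acidity comes from the vacuolar proton pump (V-ATPase), in which a soluble V1 sector hydrolyses ATP and a membrane V0 sector carries protons. Autophagy delivers cytoplasm to the same compartment, by enclosing cargo in a membrane decorated with small ATG8 proteins that fuses with the lysosome. The transcription factors TFEB and TFE3 bind E-box elements near many lysosomal and autophagy genes, and in the fed state mTORC1, a kinase held on the lysosome, keeps them in the cytoplasm. Steroid-producing adrenocortical cells, among other uses, free cholesterol from lipoproteins in lysosomes.

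The genes described here are 35 genes of these systems, picked by symbol from a table of 60662 genes: TFEB and TFE3, 5 subunits of V0, 8 subunits of V1, 2 accessory pump proteins, 3 lysosomal membrane proteins, 10 enzymes and cofactors of the lysosomal lumen, and 5 autophagy genes. They were chosen with earlier results of these data known, so counts among them set beside all tested genes are descriptions and not tests. All 35 genes were found and all 35 were among the 16815 genes tested, which had a TPM (transcripts per 1e6 transcripts) of at least 0.5 in 4 samples or more. RNA-seq was performed on NCI-H295R cells, an established human adrenocortical carcinoma line that makes cortisol. After 12 h in serum-free medium, which all groups shared, confluent cultures received for 24 h 0.1% DMSO (VEH), 30 µM CJ28, a benzimidazolylurea that inhibits cortisol biosynthesis, or 30 µM metyrapone (MET), an inhibitor of the last step of cortisol synthesis, with 4 biological replicates per group. NCI-H295R is a single tumour line in culture without serum, which limits it as a model of the adrenal cortex.

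The values are TPM, a gene's share of all transcripts after correction for length, so levels of different genes can be compared but the number of reads behind a value is unknown. Log2 fold changes are on the log2(TPM + 0.1) scale, which understates changes of low genes such as TFEB, and their adjusted p-values come from one limma fit over all tested genes with Benjamini-Hochberg adjustment. Against VEH, the median change of all tested genes was -0.13 in CJ28 and -0.03 in MET on the log2 scale. The share of TPM in nuclear protein-coding genes was 24.6% ± 0.229 in VEH, 21.3% ± 0.0299 in CJ28 and 24.3% ± 0.223 in MET (SD, n = 4). Each change in CJ28 is therefore read against that median, and the calls are also given after median-of-ratios scaling, which brings the median of all genes to 0.01, and after recomputing TPM over nuclear protein-coding genes, where it is 0.09. In bulk samples, fewer cells of a type and less RNA per cell cannot be told apart. All 7 adrenocortical markers (NR5A1, STAR, CYP11A1, CYP17A1, CYP21A2, HSD3B2 and MC2R) passed the filter. Their summed level was 270.0 to 281 TPM in VEH, 109 to 116 TPM in CJ28 and 269 to 284 TPM in MET. The paper reports that CJ28 changed the mRNA of steroid-synthesis genes, among them NR5A1, STAR and CYP17A1. What part the lower level of these markers in CJ28 has in the results was not tested. None of 7 macrophage, 5 fibroblast and 5 endothelial markers passed the filter, and their summed levels were at most 0.92, 1.42 and 0.14 TPM in any sample.

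Promoter sequence was examined because the E-box CACGTG, often preceded by a T (TCACGTG), is the element that TFEB and TFE3 are known to bind. Windows from 250 bases before to 50 bases after the RefSeq start (GRCh38.p14) were given for 26 of the 35 genes, in 32 windows, and were searched on both strands. ATP6V0E1, ATP6V1A, ATP6V1B2, ATP6V1C1, ATP6V1H, CTSB, HEXA, LAMP2 and PSAP had no window in the table. CACGTG was found in 9 of the 26 genes (34.6%), namely ATP6V0B, ATP6V0D1, ATP6V1G1, LAMP1, MCOLN1, CTSA, CTSD, GAA and NEU1, and the same 9 held TCACGTG, which contains CACGTG. Of all 27305 genes with a window, 8.77% held CACGTG and 4.49% held TCACGTG, and of the 10567 tested genes with a window, 12.7% and 7.28% did. The related element TCATGTG was found in ATP6V0C and CTSA, 7.69% of the 26 genes against 3.59% of all genes. The 35 genes were listed as genes under TFEB and TFE3. A higher share of elements that these factors bind is therefore not an independent result.

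The 200 bases before the start are shown for 8 genes, to set windows with the element beside windows without it. The windows with the element span every outcome in CJ28, and those without it are both from genes that were higher. Capitals mark CACGTG with the flanking T or A where there is one. LAMP1 (chr13:113297039-113297238, plus strand), with 5 copies, and MCOLN1 (chr19:7522424-7522623, plus strand), with 2, were not called changed in the TPM as deposited, but LAMP1 was called higher after either rescaling (log2 fold changes of 0.12 and 0.17, adjusted p = 0.0123 and 0.002).
LAMP1: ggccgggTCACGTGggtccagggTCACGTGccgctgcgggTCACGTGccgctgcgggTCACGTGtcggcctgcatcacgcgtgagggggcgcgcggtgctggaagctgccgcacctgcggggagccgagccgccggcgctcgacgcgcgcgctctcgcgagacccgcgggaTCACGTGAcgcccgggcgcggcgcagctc
MCOLN1: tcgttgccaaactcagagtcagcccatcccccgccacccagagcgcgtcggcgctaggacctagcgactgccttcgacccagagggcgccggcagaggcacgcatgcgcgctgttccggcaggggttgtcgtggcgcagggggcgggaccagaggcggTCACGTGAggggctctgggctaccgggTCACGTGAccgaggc
NEU1 (chr6:31862822-31863021, minus strand), with 1 copy, and ATP6V0B (chr1:43974760-43974959, plus strand), with 2, were higher in CJ28 than in VEH.
NEU1: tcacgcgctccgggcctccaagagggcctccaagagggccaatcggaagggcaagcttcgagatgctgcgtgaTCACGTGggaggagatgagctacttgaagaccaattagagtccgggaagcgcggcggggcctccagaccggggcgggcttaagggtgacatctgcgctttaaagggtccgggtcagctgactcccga
ATP6V0B: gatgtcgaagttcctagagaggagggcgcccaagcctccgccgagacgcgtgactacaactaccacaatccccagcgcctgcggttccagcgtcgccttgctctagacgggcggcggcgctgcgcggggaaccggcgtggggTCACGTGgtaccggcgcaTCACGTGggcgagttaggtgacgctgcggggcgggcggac
CTSA (chr20:45891135-45891334, plus strand), with 2 copies, and ATP6V0D1 (chr16:67481158-67481357, minus strand), with 1, were lower.
CTSA: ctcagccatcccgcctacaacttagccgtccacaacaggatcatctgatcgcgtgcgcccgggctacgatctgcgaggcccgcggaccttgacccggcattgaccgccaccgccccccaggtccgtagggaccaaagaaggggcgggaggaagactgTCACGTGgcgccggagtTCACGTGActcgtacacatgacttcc
ATP6V0D1: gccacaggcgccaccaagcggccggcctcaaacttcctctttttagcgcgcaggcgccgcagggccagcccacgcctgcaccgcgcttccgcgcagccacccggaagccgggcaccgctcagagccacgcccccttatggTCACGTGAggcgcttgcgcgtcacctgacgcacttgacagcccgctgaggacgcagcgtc
WIPI1 (chr17:68457497-68457696, minus strand) and GABARAPL1 (chr12:10212677-10212876, plus strand) held no copy, and each rose more than any of the 9 genes with the element. Other genes with a window but no copy were lower, among them ATP6V0C, CTSZ and GLA, whose windows are not shown.
WIPI1: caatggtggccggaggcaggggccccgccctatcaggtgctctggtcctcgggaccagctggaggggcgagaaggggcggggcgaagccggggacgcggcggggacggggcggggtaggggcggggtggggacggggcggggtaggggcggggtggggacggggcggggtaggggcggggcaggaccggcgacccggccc
GABARAPL1: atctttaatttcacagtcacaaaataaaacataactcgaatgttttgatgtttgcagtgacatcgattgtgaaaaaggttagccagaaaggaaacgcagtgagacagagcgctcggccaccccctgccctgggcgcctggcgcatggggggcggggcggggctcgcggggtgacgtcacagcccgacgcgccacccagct

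The copies nearest to the start lay 28 bases before it in LAMP1, 14 in MCOLN1, 126 in NEU1, 39 in ATP6V0B, 25 in CTSA and 59 in ATP6V0D1. Of the 9 genes with CACGTG, 3 were called higher in CJ28 than in VEH, 2 lower and 4 in neither direction. Of all tested genes, 19.9% were called higher and 37.1% lower. After median-of-ratios scaling 4 of the 9 were higher and 2 lower, where 29.3% of all tested genes were higher and 26.3% lower. The median log2 fold change of the 9 genes with CACGTG was -0.04 as deposited. Of the 17 genes with a window but without it, 8 were called higher and 7 lower, with a median of 0.05, and the median of all tested genes was -0.13. No CACGTG was found in the windows of TFEB, TFE3, SQSTM1, MAP1LC3B or ULK1, which says only that these letters are absent from these windows. RefSeq starts lay 0 to 14507 bases from the gene starts in the deposited table, 1191 bases for CTSA, 473 for ATP6V0B and 419 for GABARAPL1, and a match is a description of the sequence, not a measured binding site.

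In VEH the 35 genes ranged over levels from 0.67 TPM for TFEB to 289 TPM for PSAP, the precursor of the saposins that help enzymes reach sphingolipids. HEXA (72.0 TPM) and ATP6V1G1 (71.9 TPM) came next, and their ranges overlapped. At the low end, MCOLN1, the calcium channel of the lysosomal membrane (3.25 TPM), ULK1, the kinase that starts autophagy (4.04 TPM), and GAA, the acid alpha-glucosidase (4.16 TPM), preceded WIPI1 (5.11 TPM). Ordered by mean, 23 of the 34 pairs of neighbours had overlapping ranges across the VEH samples, so the order is coarse. The V1 subunits did not share one level, running from 6.84 TPM for ATP6V1B2 to 71.9 TPM for ATP6V1G1, and V0 subunits ran from 10.4 TPM for ATP6V0A1 to 59.2 TPM for ATP6V0B.

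In CJ28, 16 of the 35 genes were higher than in VEH, 12 were lower and 7 did not pass the test. Of all 16815 tested genes, 57.0% were called (19.9% higher and 37.1% lower). The median log2 fold change of the 35 genes was 0.03, against -0.13 over all tested genes, and single genes ran from -0.60 (ATP6V0C) to 1.17 (WIPI1). The groups did not overlap for 16 genes that were higher and 8 that were lower, against 50.3% of all tested genes (17.7% higher and 32.7% lower). After median-of-ratios scaling 18 genes were higher and 6 lower, against 55.6% of all tested genes (29.3% higher and 26.3% lower), and the median of the 35 was 0.18 against 0.01. Recomputed over protein-coding genes, 18 were higher and 6 lower, against 65.6% of 12506 genes (39.2% higher and 26.3% lower).

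Under all 3 scalings, 16 genes were called higher. They were ATP6V0B, ATP6V1E1, ATP6V1F, ATP6V1G1, ATP6V1H, ATP6AP1, LAMP2, CTSB, CTSL, HEXA, NEU1, PSAP, GABARAPL1, WIPI1, TFEB and TFE3. Lower under all 3 were ATP6V0C, ATP6V0D1, ATP6V0E1, CTSA, CTSZ and GLA, while ATP6V1C1, MCOLN1, CTSD, GAA and ULK1 were called under none. The call of the other 8 genes depended on the scaling: ATP6V1A, ATP6V1B2, ATP6V1D, ATP6AP2, SQSTM1 and MAP1LC3B were lower in TPM as deposited and not called after either rescaling, and ATP6V0A1 and LAMP1 were not called as deposited and higher after both. The share of all tested genes with the same call under all 3 scalings is not given here. The counts under all 3 therefore have no background beside them. Single scalings called 19.9%, 29.3% and 39.2% of genes higher, and 37.1%, 26.3% and 26.3% lower.

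**Figure D1:**
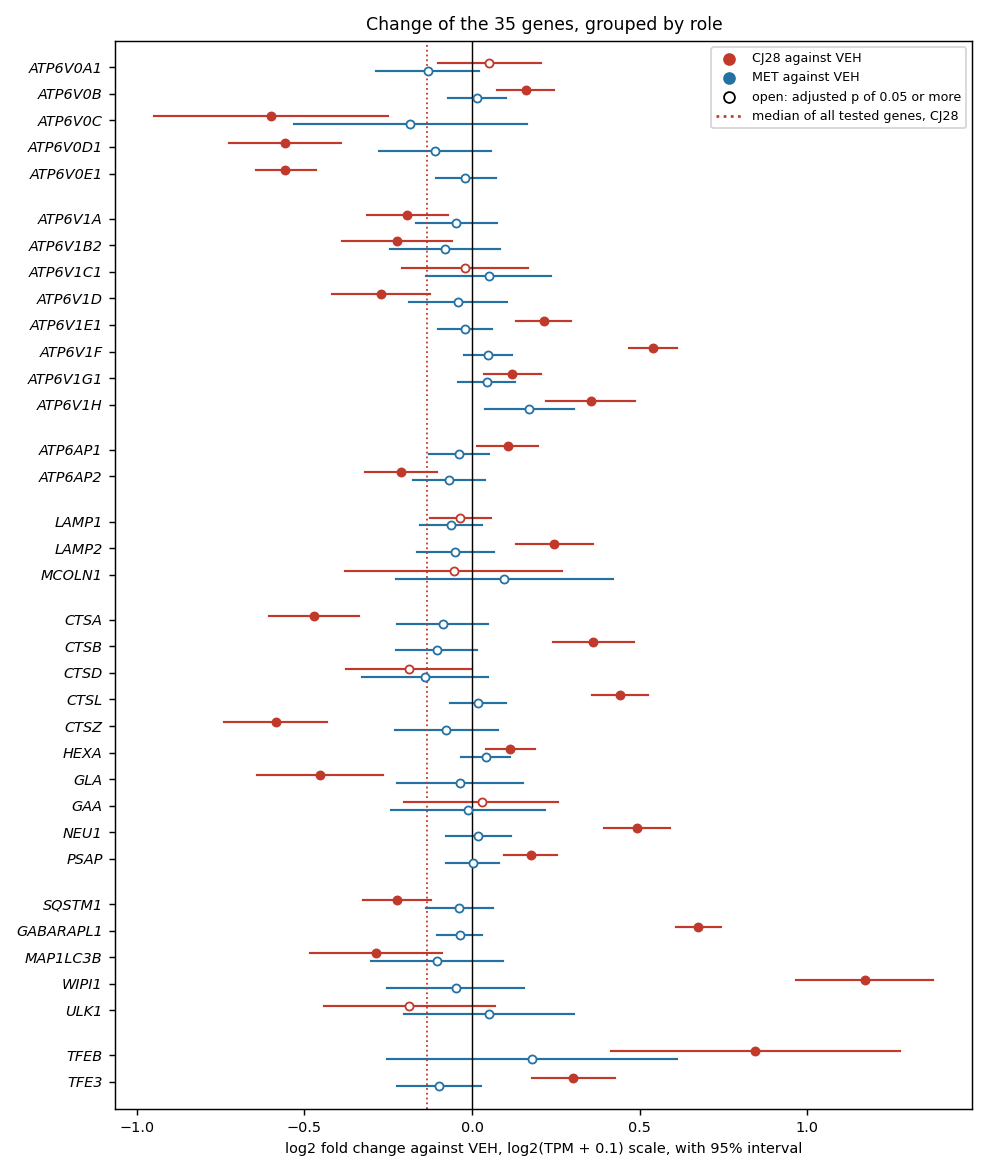
Log2 fold change of each of the 35 genes on the log2(TPM + 0.1) scale, CJ28 against VEH in red and MET against VEH in blue, with 95% intervals from the limma fit. Filled points have an adjusted p under 0.05, gaps separate V0, V1, accessory proteins, membrane, lumen, autophagy and the transcription factors, and the dotted line is the median of all tested genes in CJ28 (-0.13). CJ28 points spread from -0.60 to 1.17, and MET points lie between -0.18 and 0.18 with none filled.

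Both transcription factors were higher in CJ28. TFEB (ENSG00000112561.18, chr6:41683978-41736259, minus strand, GRCh38) had 0.68, 0.62, 0.68 and 0.7 TPM in the VEH samples, 1.21, 1.39, 1.43 and 1.12 TPM in the CJ28 samples and 0.48, 1.18, 0.76 and 0.8 TPM in the MET samples. All CJ28 samples lay above all VEH samples, the log2 fold change of 0.84 (95% interval 0.41 to 1.28, adjusted p = 0.0029) rested on the lowest level among the 35 genes, and the MET samples overlapped both groups. TFE3 (ENSG00000068323.17, chrX:49028726-49043410, minus strand) had 8.55, 9.57, 9.08 and 8.6 TPM in the VEH samples, 11.6, 11.01, 10.1 and 11.6 TPM in the CJ28 samples and 8.83, 8.02, 8.23 and 8.3 TPM in the MET samples. It was again higher in every CJ28 sample than in every VEH and MET sample, by less, with a log2 fold change of 0.30 (95% interval 0.18 to 0.42, adjusted p = 6.24e-04). Their relative MITF, from the list of other pathway genes, was lower in TPM as deposited, from a mean of 7.45 to 5.93 TPM (log2 fold change -0.32, adjusted p = 9.27e-04). Its change under the other scalings is not given here. TPM measures RNA, so where the TFEB and TFE3 proteins were in the cell was not measured.

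The autophagy genes moved in different directions, 2 higher, 2 lower and 1 not called, where 19.9% of all tested genes were higher and 37.1% lower. WIPI1 (ENSG00000070540.13, chr17:68420948-68457513, minus strand), which binds the phosphoinositide-marked membrane where autophagosomes form, had 4.87, 5.14, 5.67 and 4.76 TPM in the VEH samples, 12.04, 11.1, 11.9 and 11.4 TPM in the CJ28 samples and 5.38, 4.32, 4.34 and 5.83 TPM in the MET samples. Its 2.27-fold higher mean in CJ28 was the largest change of the 35 genes, with a log2 fold change of 1.17 (95% interval 0.97 to 1.38, adjusted p = 3.88e-07), and the MET samples overlapped the VEH samples. GABARAPL1 (ENSG00000139112.11, chr12:10212458-10223128, plus strand), an ATG8 protein that couples to the growing membrane, had 33.4, 33.9, 33.4 and 32.2 TPM in the VEH samples, 52.8, 52.9, 53.7 and 52.8 TPM in the CJ28 samples and 31.6, 33.7, 32.7 and 31.5 TPM in the MET samples. Every CJ28 sample was at 52.8 TPM or more and every other sample at 33.9 TPM or less, which gave the smallest adjusted p of the 35 genes (log2 fold change 0.67, 95% interval 0.61 to 0.74, adjusted p = 2.08e-09).

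SQSTM1 (ENSG00000161011.20, chr5:179806398-179838078, plus strand), the receptor that ties ubiquitinated cargo to ATG8 proteins, had 50.1, 46.9, 54.0 and 48.9 TPM in the VEH samples, 41.3, 43.2, 41.7 and 44.8 TPM in the CJ28 samples and 48.03, 46.5, 49.2 and 50.9 TPM in the MET samples. It was lower in every CJ28 sample than in every VEH sample, with a log2 fold change of -0.22 (95% interval -0.33 to -0.12, adjusted p = 0.00119), but after median-of-ratios scaling the change was -0.07 (adjusted p = 0.301). MAP1LC3B (ENSG00000140941.14, chr16:87383953-87404779, plus strand), the most used ATG8 marker of autophagosomes, had 10.6, 11.9, 11.1 and 14.02 TPM in the VEH samples, 9.73, 10.1, 8.47 and 10.5 TPM in the CJ28 samples and 11.3, 10.9, 11.8 and 10.1 TPM in the MET samples. CJ28 samples again lay below all VEH samples, though the nearest were 10.5 and 10.6 TPM, and the log2 fold change of -0.29 (95% interval -0.48 to -0.09, adjusted p = 0.0164) became -0.14 (adjusted p = 0.173) after scaling. ULK1 was 4.04 ± 0.582 TPM in VEH and 3.53 ± 0.359 TPM in CJ28 (SD, n = 4) and was not called (log2 fold change -0.19, adjusted p = 0.193). In the table, SQSTM1 overlaps MGAT4B and MRNIP, and MAP1LC3B overlaps FBXO31, on the opposite strand. Whether the counting used strand is not given in the sources used here.

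GABARAPL1 made up more of the ATG8 family in CJ28 than in VEH. MAP1LC3B, GABARAP, GABARAPL1 and GABARAPL2, a sum chosen after their values were seen, added to 186, 199, 192 and 201 TPM in the VEH samples and 186, 182, 179.6 and 192 TPM in the CJ28 samples. That difference did not pass the exact permutation test (two-sided p = 0.0857) and changed direction after median-of-ratios scaling (log2 ratio 0.08, p = 0.0286). GABARAPL1 made up 17.9, 17.0, 17.4 and 16.01% of the sum in the VEH samples and 28.5, 29.0, 29.9 and 27.5% in the CJ28 samples. This share, which no scaling of a sample can change, was 17.1% ± 0.821 in VEH, 28.7% ± 1.01 in CJ28 and 17.3% ± 0.708 in MET (SD, n = 4). The exact permutation p for CJ28 against VEH was 0.0286, and 0.0515 after adjustment over 18 tests of sums, shares and ratios. The share was chosen with the values known, and GABARAPL1 and GABARAP were already called. Its p therefore adds no support beyond those calls. GABARAP itself, the most abundant of the 4 at 115 ± 4.47 TPM in VEH and 91.5 ± 5.59 TPM in CJ28, was lower (log2 fold change -0.33, adjusted p = 3.63e-05), also after scaling (-0.18, adjusted p = 0.00152).

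**Figure D2:**
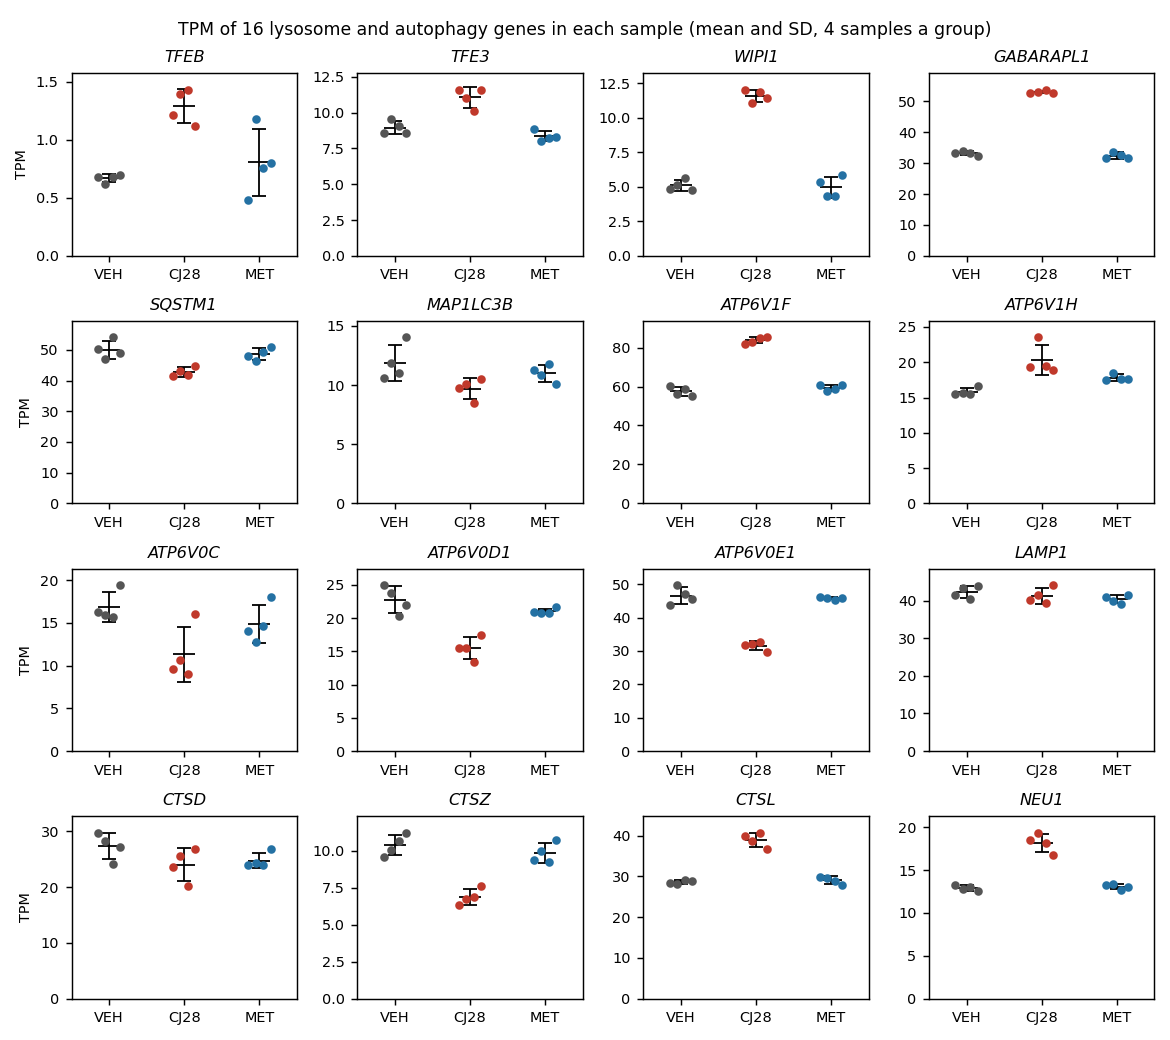
TPM of 16 of the genes in each sample (points, 4 a group, in the order of the sample numbers) with the group mean and SD in black, each panel on its own linear axis from 0. WIPI1, GABARAPL1, TFE3, ATP6V1F, ATP6V1H, CTSL and NEU1 lie higher in all CJ28 samples than in all VEH and MET samples. SQSTM1, ATP6V0D1, ATP6V0E1 and CTSZ lie lower. LAMP1 and CTSD overlap in all groups.

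The V0 sector held 3 of the 6 genes that were lower under every scaling. ATP6V0C (ENSG00000185883.12, chr16:2513952-2520218, plus strand), the proteolipid that forms most of the rotating ring, had 16.3, 15.9, 15.7 and 19.4 TPM in the VEH samples, 9.55, 10.7, 9.06 and 16.04 TPM in the CJ28 samples and 14.1, 12.8, 14.6 and 18.1 TPM in the MET samples. Of the CJ28 samples, 3 lay at or below 10.7 TPM, and CJ28-4, at 16.04 TPM, lay within the VEH range, so the groups overlapped despite the log2 fold change of -0.60 (95% interval -0.95 to -0.25, adjusted p = 0.00649). Without CJ28-4 the change was -0.78. Reads of 4 listed pseudogene copies of ATP6V0C can be exchanged with it by RSEM, and the level summed over gene and copies was 20.8 ± 2.14 TPM in VEH and 13.7 ± 3.22 TPM in CJ28 (SD, n = 4, exact permutation p = 0.0571).

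ATP6V0D1 (ENSG00000159720.12, chr16:67438014-67481181, minus strand), which joins the ring to the central stalk, had 24.9, 23.8, 20.3 and 22.03 TPM in the VEH samples, 15.5, 15.4, 13.4 and 17.4 TPM in the CJ28 samples and 20.9, 20.8, 20.8 and 21.6 TPM in the MET samples. ATP6V0E1 (ENSG00000113732.9, chr5:172983771-173035445, plus strand), a small membrane subunit, had 43.8, 49.7, 47.02 and 45.7 TPM in the VEH samples, 31.8, 32.2, 32.6 and 29.8 TPM in the CJ28 samples and 46.3, 45.95, 45.3 and 45.96 TPM in the MET samples. ATP6V0E1 overlaps the snoRNA SNORA74B on the same strand, whose mean was 25.3 TPM in VEH and 35.2 TPM in CJ28. Whether reads were divided between them differently in the groups was not tested. In ATP6V0D1 and ATP6V0E1 alike, every CJ28 sample lay below every VEH and MET sample. The log2 fold changes were -0.56 (adjusted p = 4.74e-05) and -0.56 (adjusted p = 1.71e-07), and -0.41 and -0.40 after median-of-ratios scaling. ATP6V0B, the second type of ring subunit, was instead higher, 59.2 ± 1.05 TPM in VEH and 66.2 ± 3.42 TPM in CJ28 (log2 fold change 0.16, adjusted p = 0.00396). ATP6V0A1, the large subunit that forms the proton channels with the ring, was 10.4 ± 0.982 TPM in VEH and 10.8 ± 0.628 TPM in CJ28, was not called in TPM as deposited (log2 fold change 0.05, adjusted p = 0.563) and was 0.20 (adjusted p = 0.0176) after scaling.

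In the V1 sector, 4 genes were higher, 3 lower and 1 not called, where 19.9% of all tested genes were higher and 37.1% lower. ATP6V1F (ENSG00000128524.5, chr7:128862856-128865847, plus strand), a subunit of the central stalk, had 60.1, 56.04, 58.8 and 55.3 TPM in the VEH samples, 81.9, 83.05, 84.7 and 85.2 TPM in the CJ28 samples and 60.7, 57.7, 58.7 and 60.8 TPM in the MET samples. It had the largest change of the sector, with every CJ28 sample at 81.9 TPM or more and every other sample at 60.8 TPM or less (log2 fold change 0.54, 95% interval 0.47 to 0.61, adjusted p = 3.26e-08). ATP6V1H (ENSG00000047249.18, chr8:53715543-53843558, minus strand), a regulatory subunit of the collar, had 15.5, 15.7, 15.5 and 16.6 TPM in the VEH samples, 19.3, 23.5, 19.5 and 18.9 TPM in the CJ28 samples and 17.4, 18.5, 17.6 and 17.6 TPM in the MET samples. The 3 groups did not overlap, with MET between VEH and CJ28, and sample CJ28-2 stood above the rest of its group. CJ28 differed from VEH by 0.35 (adjusted p = 3.17e-04) and from MET by 0.18 (adjusted p = 0.0218).

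The peripheral stalk subunits ATP6V1E1 and ATP6V1G1 were higher by 0.21 and 0.12 on the log2 scale, ATP6V1E1 from a mean of 64.9 to 75.2 TPM and ATP6V1G1 from a mean of 71.9 to 78.05 TPM. ATP6V1A, the catalytic subunit, ATP6V1B2, its partner in the ATPase head, and ATP6V1D, of the central stalk, had log2 fold changes of -0.19 (adjusted p = 0.0096), -0.23 (adjusted p = 0.0227) and -0.27 (adjusted p = 0.004), against a median of -0.13 over all genes. After median-of-ratios scaling these 3 were -0.04, -0.07 and -0.12, and none was called. ATP6V1C1, which helps V1 and V0 come together, was 20.1 ± 2.11 TPM in VEH and 19.8 ± 1.28 TPM in CJ28 and was not called. Of the accessory proteins, ATP6AP1, an assembly factor, was higher by 0.11 with an adjusted p of 0.0441, a call that was lost in 9 of the 12 fits that left out 1 sample. ATP6AP2, also known as the prorenin receptor, was lower by TPM as deposited (log2 fold change -0.21, adjusted p = 0.00269) and -0.06 after scaling.

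Summed over genes, the V0 subunits had 151 to 161 TPM in VEH and 132 to 137 TPM in CJ28, and the V1 subunits 301 to 309 TPM in VEH and 329.6 to 350.0 TPM in CJ28. The size of both differences depended on the scaling. The log2 ratio of the V0 sum was -0.20 as deposited (exact permutation p = 0.0286) and -0.049 after median-of-ratios scaling, where it did not pass (exact permutation p = 0.0571), and that of the V1 sum was 0.16 and 0.32 (exact permutation p = 0.0286 for each). ATP6V1F weighed heavily in the V1 sum, with a mean of 57.6 TPM in VEH and 83.7 TPM in CJ28, while ATP6V1A, ATP6V1B2 and ATP6V1D were lower as deposited. By the mean of log2 values V1 differed by 0.065 (exact permutation p = 0.0857), so the sum does not describe the whole sector. The ratio of the V1 to the V0 sum, in which the scaling of a sample cancels, was 1.96, 1.91, 2.04 and 1.91 in the VEH samples, 2.58, 2.52, 2.57 and 2.41 in the CJ28 samples and 2.05, 2.17, 2.02 and 1.92 in the MET samples. The CJ28 samples lay above all others. Group means were 1.96 ± 0.0603, 2.52 ± 0.0796 and 2.04 ± 0.105 (SD, n = 4), and the exact permutation test gave a two-sided p of 0.0286 for CJ28 against VEH and 0.229 for MET against VEH. With 4 against 4 samples 0.0286 is the smallest p that the exact permutation test can give. Adjusted over the 18 such tests of sums, shares and ratios it was 0.0515, which does not pass 0.05, and the same adjusted value belongs to the GABARAPL1 share and to the sum of the lumen genes in CJ28 against VEH. The V0, V1 and lumen sums and the V1 to V0 ratio hold genes already called in these same samples. Those genes were chosen with earlier results known, so the p-values of these sums and this ratio add no support beyond the calls.

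**Figure D3:**
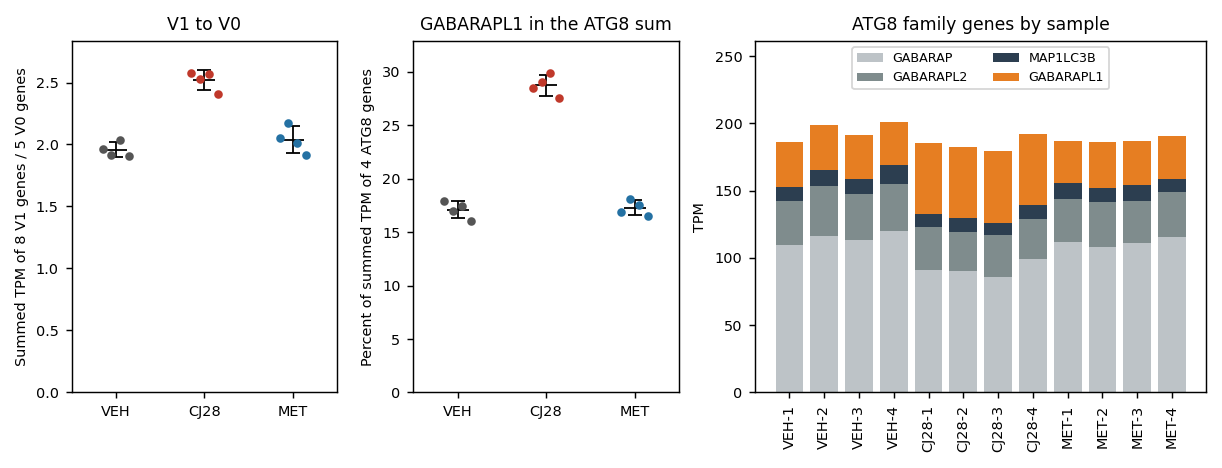
Left, ratio of the summed TPM of 8 V1 genes to that of 5 V0 genes by sample, middle, GABARAPL1 as a percentage of the summed TPM of 4 ATG8 genes, both with group mean and SD (n = 4) and axes from 0, and right, TPM of the 4 ATG8 genes stacked by sample. In both, the CJ28 samples lie above all VEH and MET samples (2.52 against 1.96 and 2.04, and 28.7% against 17.1% and 17.3%), and the stacked bars total 179.6 to 201 TPM.

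Of the 3 membrane proteins, LAMP2 was higher and LAMP1 and MCOLN1 were not called. LAMP1 (ENSG00000185896.11, chr13:113297239-113323672, plus strand), an abundant glycoprotein of the lysosomal membrane, had 41.4, 43.4, 40.4 and 43.9 TPM in the VEH samples, 40.1, 41.5, 39.3 and 44.1 TPM in the CJ28 samples and 41.1, 39.99, 39.1 and 41.5 TPM in the MET samples. The groups overlapped, and the log2 fold change of -0.04 (95% interval -0.13 to 0.06, adjusted p = 0.502) turned to 0.12 (adjusted p = 0.0123) after median-of-ratios scaling. LAMP2, which also serves chaperone-mediated autophagy, rose from a mean of 23.2 to 27.5 TPM (log2 fold change 0.24, adjusted p = 0.00169). MCOLN1 was 3.25 ± 0.754 TPM in VEH and 3.07 ± 0.221 TPM in CJ28, with a 95% interval of -0.38 to 0.27 for its log2 fold change, and PNPLA6, which overlaps it on the same strand, went from 3.25 to 5.67 TPM.

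Among the 10 lumen genes, 5 were higher, 3 lower and 2 not called, and these calls were alike under all 3 scalings. Of all tested genes, 57.0% were called as deposited and 55.6% after median-of-ratios scaling, and 65.6% of protein-coding genes when recomputed over them. The higher ones included 2 cysteine proteases, CTSL, at 28.7 ± 0.495 TPM in VEH and 39.02 ± 1.71 TPM in CJ28 (log2 fold change 0.44, adjusted p = 7.61e-07), and CTSB, at 23.6 ± 0.96 TPM in VEH and 30.4 ± 2.58 TPM in CJ28 (log2 fold change 0.36, adjusted p = 1.20e-04). The sialidase NEU1 was 12.9 ± 0.301 TPM in VEH and 18.2 ± 1.06 TPM in CJ28 (log2 fold change 0.49, adjusted p = 1.25e-06). CTSA, the serine carboxypeptidase that binds and protects NEU1, went the other way, at 33.1 ± 1.91 TPM in VEH and 23.9 ± 2.15 TPM in CJ28 (log2 fold change -0.47, adjusted p = 3.40e-05). For NEU1 and CTSA alike, CJ28 and VEH samples did not overlap.

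CTSZ (ENSG00000101160.14, chr20:58995185-59007254, minus strand), a cysteine carboxypeptidase, had 9.62, 10.1, 10.7 and 11.2 TPM in the VEH samples, 6.34, 6.75, 6.87 and 7.64 TPM in the CJ28 samples and 9.38, 10.03, 9.27 and 10.8 TPM in the MET samples. All CJ28 samples lay below all others, with a log2 fold change of -0.59 (95% interval -0.74 to -0.43, adjusted p = 1.43e-05). GLA, the alpha-galactosidase, was 12.2 ± 1.31 TPM in VEH and 8.86 ± 1.02 TPM in CJ28 (log2 fold change -0.46, adjusted p = 6.53e-04), and it overlaps RPL36A, at 294 and 305 TPM, on the opposite strand. CTSD (ENSG00000117984.14, chr11:1752755-1764573, minus strand), the main aspartic protease, had 29.7, 28.2, 24.1 and 27.2 TPM in the VEH samples, 23.6, 25.5, 20.1 and 26.9 TPM in the CJ28 samples and 23.9, 24.3, 24.03 and 26.7 TPM in the MET samples. Its groups overlapped, and it did not pass the test (log2 fold change -0.19, 95% interval -0.38 to -0.001, adjusted p = 0.0798). HEXA, a subunit of beta-hexosaminidase, and PSAP rose by 0.11 and 0.17, and GAA did not pass the test (log2 fold change 0.03, adjusted p = 0.84).

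The 10 lumen genes summed to 501 to 538 TPM in VEH and 546 to 574 TPM in CJ28 (log2 ratio 0.12, exact permutation p = 0.0286), and the log2 ratio was 0.28 after median-of-ratios scaling. Without any 1 of the 4 CJ28 samples the difference did not pass (exact permutation p = 0.0571 each). PSAP made up most of this sum, at 289 ± 14.7 TPM in VEH and 326 ± 9.01 TPM in CJ28. The mean of the 10 log2 values differed by -0.009 between CJ28 and VEH (exact permutation p = 0.743), so the sum and the mean of logs differed in sign.

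In MET, 0 of the 35 genes were called against VEH, where 0.00595% of all tested genes (1 gene) were. At an unadjusted p under 0.05, limma found 1 of the 35 genes and 874 of the 16815. The 1 gene was ATP6V1H, higher in all 4 MET samples (17.4 to 18.5 TPM) than in all VEH samples (15.5 to 16.6 TPM), and its log2 fold change was 0.17 (95% interval 0.04 to 0.30, adjusted p = 0.933). CTSB was lower without overlap, 22.63, 22.92, 24.45 and 24.4 TPM in VEH and 22.56, 21.3, 21.43 and 22.38 TPM in MET, and its log2 fold change was -0.11 (adjusted p = 0.933). Groups without overlap were seen for 2.81% of all tested genes, 0.779% higher and 2.03% lower. Log2 fold changes of the 35 genes ran from -0.18 to 0.18 with a median of -0.04, against -0.03 over all genes, and for 33 of them the 95% interval lay within 0.5 of 0. The exceptions were ATP6V0C, with an interval of -0.53 to 0.17, and TFEB, with -0.25 to 0.61 and MET samples from 0.48 to 1.18 TPM.

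CJ28 and MET were given at the same dose and time, so they could be compared directly, in a comparison that shares its CJ28 samples with the one above. Of the 35 genes, 15 were higher in CJ28 than in MET, 10 lower and 10 not called (55.5% of all tested genes were called, 20.9% higher and 34.6% lower). After median-of-ratios scaling 18 were higher and 5 lower, against 54.8% of all tested genes (28.7% higher and 26.1% lower). WIPI1 differed by 1.22 (adjusted p = 2.73e-07), GABARAPL1 by 0.71 (adjusted p = 1.31e-09), ATP6V1F by 0.49 (adjusted p = 7.98e-08) and TFE3 by 0.40 (adjusted p = 6.45e-05). ATP6V0E1 differed by -0.54 (adjusted p = 2.48e-07), CTSZ by -0.51 (adjusted p = 5.00e-05) and ATP6V0D1 by -0.45 (adjusted p = 3.02e-04). TFEB differed by 0.67 (adjusted p = 0.0124), although the highest MET sample (1.18 TPM) lay above the lowest CJ28 sample (1.12 TPM).

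The rest of the pathway was followed in 7 lists of 170 other genes, of which 161 were tested. These lists, too, were chosen with earlier results of these data known, and their counts are descriptions. In CJ28, 46 of them were higher than in VEH and 56 lower (63.4% called, against 57.0% of all tested genes, 19.9% higher and 37.1% lower), with a median of -0.06 against -0.13. After median-of-ratios scaling 65 were higher and 37 lower, where 29.3% of all tested genes were called higher and 26.3% lower. The same shares stand behind the counts of each list. In MET, 0 of the 161 were called and 2 had an unadjusted p under 0.05.

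Of 15 other V-ATPase subunits and assembly factors, 4 were higher and 6 lower, and 4 and 4 after scaling. NCOA7, which binds the pump, and DMXL2 and DMXL1, parts of the complex that rejoins V1 and V0, rose by 0.77, 0.56 and 0.41. VMA21 and CCDC115, which serve assembly of V0 in the endoplasmic reticulum, had log2 fold changes of -0.53 (adjusted p = 4.98e-07) and -0.41 (adjusted p = 4.76e-06), and ATP6V0E2, the relative of ATP6V0E1, had -0.35 (adjusted p = 1.56e-04). For each of these 6 genes CJ28 and VEH samples did not overlap.

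Of 39 other hydrolases and activators, 11 were higher and 15 lower, and 14 and 10 after scaling. MANBA, a beta-mannosidase, was 4.75 ± 0.173 TPM in VEH and 9.06 ± 0.709 TPM in CJ28 (log2 fold change 0.91, adjusted p = 7.84e-08). DNASE2, the acid DNase, and IDUA, the alpha-iduronidase, rose by 0.78 and 0.71, and the cysteine proteases CTSO and CTSV and the sulfatase ARSB had log2 fold changes of -0.99, -0.89 and -0.80. CTSO had 3.17, 3.41, 3.15 and 3.5 TPM in the VEH samples and 1.82, 1.5, 1.63 and 1.53 TPM in the CJ28 samples. Without CJ28-2 the count of higher genes in this list was 7.

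Of 22 other membrane proteins, 7 were higher and 5 lower, and 11 and 3 after scaling. The sialic acid exporter SLC17A5, the cholesterol exporter NPC1 and the chloride exchanger CLCN7 rose by 0.61, 0.54 and 0.40. NPC1, which carries lipoprotein cholesterol out of lysosomes, had 11.7, 11.9, 12.4 and 11.97 TPM in the VEH samples and 17.1, 17.5, 17.0 and 18.3 TPM in the CJ28 samples. The amino acid transporter SLC36A1, LAPTM4A and the polyamine exporter ATP13A2 had log2 fold changes of -0.72, -0.58 and -0.39, and ATP13A2 was not called after scaling (adjusted p = 0.122). Of 9 genes of mannose 6-phosphate tagging and sorting, 0 were higher and 4 lower, and 0 and 3 after scaling. NAGPA and GNPTAB, enzymes that make the tag, and CLN6, which helps enzymes leave the endoplasmic reticulum, had log2 fold changes of -0.70, -0.32 and -0.53. GNPTAB was not called over protein-coding genes (-0.12, adjusted p = 0.116).

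Of 36 other autophagy machinery genes, 9 were higher and 9 lower, and 17 and 4 after scaling, so the balance in this list depended on the scaling. ATG101, of the ULK1 complex, had 29.0, 27.1, 29.3 and 27.6 TPM in the VEH samples and 44.7, 41.2, 42.5 and 42.05 TPM in the CJ28 samples (log2 fold change 0.59, adjusted p = 7.13e-08). NRBF2, of the lipid kinase complex, and ATG7, the enzyme that activates ATG8 proteins, rose by 0.55 and 0.51. The ULK1 relative ULK2 and the regulator AMBRA1 had log2 fold changes of -0.54 and -0.35. AMBRA1 was not called over protein-coding genes (-0.14, adjusted p = 0.0965).

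Of 14 selective autophagy receptors, 5 were higher and 6 lower, and 7 and 4 after scaling. CCPG1, a receptor for endoplasmic reticulum, had 9.21, 9.93, 10.3 and 9.36 TPM in the VEH samples and 33.96, 31.97, 33.5 and 30.5 TPM in the CJ28 samples. Its log2 fold change of 1.73 (adjusted p = 2.63e-11) exceeded that of every one of the 35 genes. OPTN, a receptor for mitochondria and bacteria, and CALCOCO2, for bacteria, rose by 0.85 and 0.54. The mitochondrial receptor BNIP3L, the ferritin receptor NCOA4 and the endoplasmic reticulum receptor TEX264 had log2 fold changes of -0.52, -0.40 and -0.39.

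Of 26 relatives of TFEB and genes of mTORC1 nutrient sensing, 10 were higher and 11 lower, and 12 and 9 after scaling. SESN2, a leucine sensor that restrains mTORC1, had 2.99, 2.75, 2.74 and 3.09 TPM in the VEH samples and 10.6, 11.5, 10.7 and 12.02 TPM in the CJ28 samples. Its log2 fold change was 1.92 (adjusted p = 1.98e-10), while that of its relative SESN3 was -1.17 (adjusted p = 3.98e-08), from a mean of 5.04 to 2.18 TPM. DDIT4, another inhibitor of mTORC1, and FLCN, which controls the phosphorylation of TFEB and TFE3 on the lysosome, rose by 1.00 and 0.75. LAMTOR1, which anchors the Ragulator complex, and the GTPase RRAGB had log2 fold changes of -0.46 and -0.44.

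**Figure D4:**
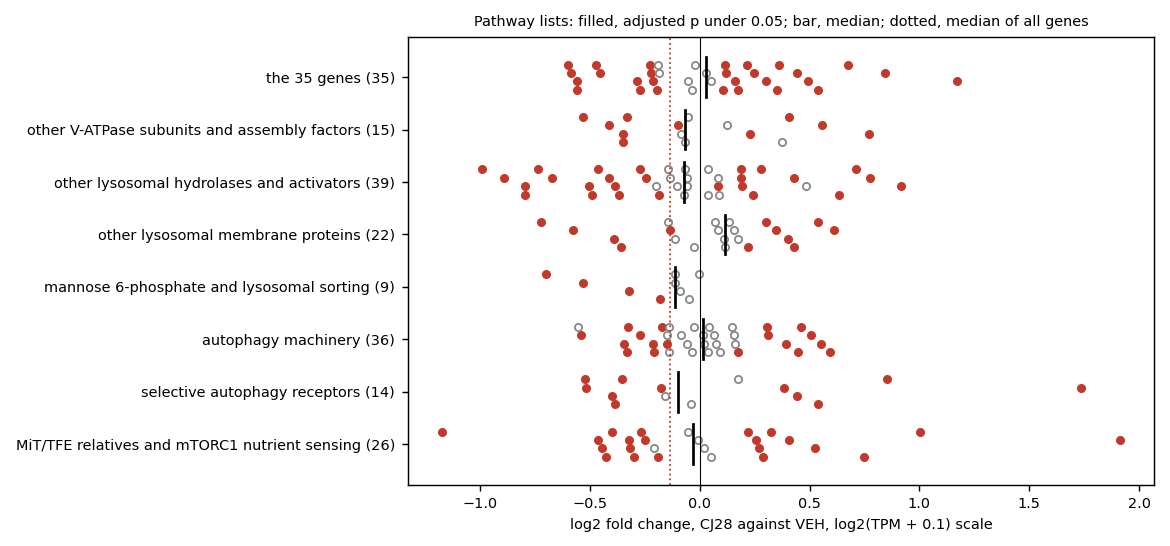
Log2 fold change of CJ28 against VEH on the log2(TPM + 0.1) scale for the 35 genes and the tested genes of 7 other lists, 1 point per gene, with the number of genes beside each name. Filled points have an adjusted p under 0.05, black bars are list medians and the dotted line is the median of all tested genes (-0.13). Each list but mannose 6-phosphate sorting has called genes on both sides of 0, and SESN2 (1.92) and CCPG1 (1.73) lie farthest to the right.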

How the data were processed

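RNA-seq of 12 NCI-H295R samples was examined, 4 each of VEH, CJ28 and MET, grouped by the treatment in the sample labels. Total RNA was depleted of ribosomal RNA and made into stranded libraries. The authors trimmed adaptors with Cutadapt (version 2.8), mapped the reads to GRCh38 with STAR (version 2.7.10b) and obtained gene values with RSEM (version 1.3.3), which divides reads between near-identical genes. The gene annotation and the strand setting are not given in the sources used here. The deposited values are TPM with 2 decimals for 60662 genes. TPM keeps no depth, so no count model, counting interval or detection limit was computed. The authors' own tests used DESeq2 counts, which were not used here.

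Values were log2-transformed after adding 0.1. One model of the 3 groups, without covariates, was fitted in limma 3.58.1 (R 4.3.3, lmFit and trended eBayes) to the 16815 genes that reached 0.5 TPM in 4 or more of the 12 samples. P-values were two-sided and adjusted by the Benjamini-Hochberg method over all tested genes, and genes with an adjusted p under 0.05 were called. Sums and ratios of TPM were compared by two-sided exact permutation tests in Python (version 3.11.15) with scipy (version 1.17.1). The limma procedure was tested on simulated data. Promoters came from a RefSeq table of GRCh38.p14.

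Values in every sample were given for genes with an adjusted p under 0.05 and an absolute log2 fold change of at least 0.5 in CJ28 against VEH, for TFEB, TFE3, SQSTM1, MAP1LC3B, GABARAPL1, LAMP1 and CTSD, and for the gene with the smallest p in MET. From each other list, up to 3 called genes per direction with the largest change and a mean of at least 1 TPM were named. MITF and GABARAPL2, and the ATG8 sum, were added after values had been seen. The 35 genes and the lists were chosen with earlier results of these data known.

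Alternatives were pseudocounts of 1 and 0.01, no filter, a mean of at least 1 TPM, median-of-ratios scaling, TPM over nuclear protein-coding genes, a fit of just the pair of groups in question, replicate number as a block, the mean of logs in place of a sum, and each sample left out in turn.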

Additional observations from a re-analysis of the deposited data

Results flagged for a closer look

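In 8 of the 123 groups of 4 samples examined, 1 sample stood apart from the other 3 by Dixon's test, which chance does in about 1 of 20 groups. Sample VEH-4 was the highest for ATP6V0C, at 19.41 TPM against 15.73 to 16.31 TPM in the other VEH samples, and for PSAP, at 310.7 TPM against 279.6 to 282.4 TPM. The summed level of the 10 lumen genes, which PSAP dominates, was likewise highest in VEH-4, at 538.5 TPM against 501.3 to 507.2 TPM. MET-4 was the highest MET sample for ATP6V0D1, at 21.62 TPM against 20.77 to 20.86 TPM, and for CTSD, at 26.73 TPM against 23.92 to 24.27 TPM. CJ28-2 had 23.5 TPM of ATP6V1H against 18.93 to 19.49 TPM in the other CJ28 samples. VEH-3 had 14.12 TPM of GLA against 11.4 to 11.73 TPM. CJ28-3 had 53.73 TPM of GABARAPL1 against 52.83 to 52.89 TPM, a gap of less than 1 TPM in a very tight group. Leaving any of these samples out did not end the calls of ATP6V0C, ATP6V0D1, ATP6V1H, GLA, PSAP or GABARAPL1 in CJ28 against VEH.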

How the results depend on the processing

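With median-of-ratios scaling, the count of the 35 genes lower in CJ28 than in VEH went from 12 to 6, that of lower genes against MET from 10 to 5, that of lower genes in the 7 other lists from 56 to 37, membrane proteins from 7 to 11 higher and 5 to 3 lower, and autophagy machinery from 9 to 17 higher and 9 to 4 lower. With TPM over protein-coding genes these counts were 6, 5, 29, 11 and 3, and 20 and 2, with 73 in place of 46 higher in the other lists, V-ATPase factors at 7 higher and 3 lower, sorting genes at 1 higher and 2 lower, and 5 lower genes of the mTORC1 list. The calls over all genes moved too. Against VEH, 19.9% were higher and 37.1% lower as deposited, 29.3% and 26.3% by median of ratios, and 39.2% and 26.3% over protein-coding genes. Against MET, 5039 of 12506 protein-coding genes were higher and 3165 lower. Log2 fold changes that changed sign were ATP6V1C1 (0.13 by median of ratios and 0.18 over protein-coding genes), LAMP1 (0.12 and 0.17), MCOLN1 (0.093 and 0.15) and, over protein-coding genes, ATP6V1A (0.012), CTSD (0.016) and ULK1 (0.014). The V0 sum was -0.049 after scaling (exact permutation p = 0.0571), the ATG8 sum 0.08 (p = 0.0286), and the lumen sum in MET 0.019. By the mean of logs, V1 was 0.065 and the lumen -0.009 (exact permutation p = 0.0857 and 0.743). The cause of these shifts was not tested.

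Leaving out 1 sample at a time gave 14 to 16 higher and 11 to 13 lower genes of the 35 in CJ28, 0 in MET, and 7 to 11 higher hydrolases, the lowest without CJ28-2. Small changes crossed 0 for ATP6V0A1 (-0.001 to 0.11), ATP6V1C1 (-0.064 to 0.049), MCOLN1 (-0.15 to 0.060) and GAA (-0.033 to 0.063). In CJ28 the lumen sum ranged from 0.11 to 0.15 and did not pass the exact permutation test (p = 0.0571) whichever CJ28 sample was left out, although 3 against 4 samples can give 0.0286. In MET the ATG8 sum passed it without VEH-1 (-0.074, exact permutation p = 0.0286). In MET the ranges were -0.023 to 0.012 for the lumen sum, -0.000 to 0.033 for V1, -0.074 to -0.037 for the ATG8 sum and -0.015 to 0.039 for the GABARAPL1 share. ATP6AP1 lost its call in 9 of 12 such fits, without a filter and with only the groups compared, ATP6V1B2 in 4, ATP6V1G1 in 2 and MAP1LC3B in 1. CTSD gained a call without VEH-3 or CJ28-4, as did ULK1 without VEH-3.

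Whether equal replicate numbers mark paired cultures is not given in the sources used here. The deviations of same-numbered samples correlated at 0.00398 to 0.0394 between CJ28 and VEH and at -0.0631 to 0.0212 between MET and VEH. Between CJ28 and MET they correlated at -0.124 to -0.00766. Samples with different numbers were not compared, so these values do not settle whether the numbers pair samples. With the number as a block, 16 of the 35 genes were higher and 13 lower, CTSD being added (adjusted p = 0.0316), and of all genes 3314 were higher and 6232 lower. The paired log2 ratios of V0 (-0.20), V1 (0.16), their ratio (0.37), the lumen (0.12) and the GABARAPL1 share (0.75) all had an exact sign-flip p of 0.125, the smallest that 4 pairs can give. The 2 other pseudocounts and the filter on mean TPM changed no count by more than 1.5 times.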
